A study of Mus musculus with 514 samples.

Results

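Of the 55247 gene names valued in UMI libraries of single mouse embryos, 83 had no entry in the full-length table of the same series, and 81 of these are described here. Names were matched exactly between the tables, and Bmp15 and Nlrp14 were left out because Nlrp genes and oocyte-secreted factors were set aside. The other 55164 names stood in both tables, and 4 names (1700030L20Rik, Eif4a1, Fau, Ppia) stood only in the full-length table. Absence was of the name itself, and the matching used no measured value. The full-length table also had 65 rows with a blank name, which were dropped before matching, and what they stand for is not known here. Birc3, Khdc1b and Spin1 are also listed in RefSeq as other names of Birc2, Khdc1c and Spns1, which stood in the full-length table. They were left in. Why these names have no entry is not given in the sources used here, and the absent names were mostly those of abundant transcripts, so the choice cannot be taken as independent of level.

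UMI (unique molecular identifier) reads come from transcript 5' ends, per the labels, and 110 libraries of 1 embryo each were used. In the labels mz stands for a maternal and zygotic knockout, z for a zygotic one, NrKO for embryos without Nr5a2, EKO for those without Esrrb and DKO for those without either gene; the controls DHet are heterozygous for the deletion of both genes and NrHet for that of Nr5a2. Late 2-cell (L2C) embryos numbered 10 mz_NrKO, 10 mz_EKO, 6 mz_DKO, 6 z_NrKO, 7 z_NrHet and 7 mz_DHet. The 4-cell (4C) stage had 5 mz_NrKO, 4 mz_EKO, 10 mz_DKO and 6 mz_DHet embryos. The 8-cell (8C) stage had 5 mz_NrKO, 9 mz_EKO, 9 mz_DKO and 16 mz_DHet embryos. Embryos were taken ex vivo, and the labels name neither a mother, a litter, a strain nor the Cre line. The mz_DHet controls carry 1 deleted allele of each gene, so no group used here at 4C or 8C is free of both deletions.

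Nr5a2 and Esrrb are orphan nuclear receptors, transcription factors that bind DNA as monomers at an extended site and are known in mouse embryos and stem cells as activators of early embryonic and pluripotency genes. A mouse egg carries a large store of maternal mRNA, which is degraded in waves after fertilization while transcription from the embryo's own genome starts at the 2-cell stage. Genes with an oocyte or egg role are therefore mostly inherited as mRNA, and housekeeping genes of translation, division and protein turnover are both inherited and made anew.

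Esrrb was lowest in the groups labelled as lacking it: at 8C it ranged from 1.83 to 4.78 TPM (transcripts per 1000000) in mz_DKO embryos and from 0.876 to 2.43 TPM in mz_EKO embryos, against 7.58 to 64.0 TPM in mz_DHet embryos. Nr5a2 5' reads stayed high in its knockouts, with a median of 608 TPM in mz_NrKO and 386 TPM in mz_DHet embryos at 8C, so 5' reads do not check that label. Between 9274 and 12190 genes exceeded 1 TPM per library. TPM keep no read counts, so depth is unknown and no counting interval is given. At L2C 3 libraries stood apart, mz_NrKO replicate 3 and mz_EKO replicates 9 and 10, with a median correlation to the other libraries of their group of 0.679, 0.731 and 0.751, against 0.815 over all L2C libraries. At 8C the lowest was mz_DHet replicate 12, at 0.811. Markers of cumulus and granulosa cells summed to at most 7.03 TPM per 8C library and 21.5 TPM at L2C, and sperm markers to at most 2.33 TPM at 8C. Blood markers reached 31.2 TPM at 8C. Their 8C medians were 17.6 TPM in mz_NrKO, 24.3 TPM in mz_DKO and 4.88 TPM in mz_EKO, against 3.07 TPM in mz_DHet embryos. At L2C they reached 1205 TPM in mz_DKO and 747 TPM in mz_NrKO, against 45.9 TPM in mz_DHet embryos. The 7 markers of oviduct epithelium summed to a median of 67.2 TPM in mz_NrKO and 100.9 TPM in mz_DKO, against 147 TPM in mz_DHet embryos at 8C, and to 244 to 519 TPM in mz_DKO, against 69.8 to 227 TPM in mz_DHet embryos at 4C. Most of this was Epcam, which embryos also express. The oviduct glycoprotein gene Ovgp1 reached 4.10 TPM at 8C, and Foxj1, Muc1, Pax8 and Wt1 at most 1.32 TPM. Krt7 had a median of 5.54 TPM and a highest value of 25.2 TPM in mz_DHet embryos at 8C. Its highest value there was 7.82 TPM in mz_EKO, 0.244 TPM in mz_DKO and 0 TPM in mz_NrKO embryos. The part of these markers in the results was not tested. The values are shares of 1 embryo's RNA, so fewer transcripts per cell and fewer cells cannot be told apart.

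The 81 genes were mostly abundant. The highest group mean reached 100 TPM for 59 of them and 1000 TPM for 23, and 8 were among the 100 genes with the highest such means. By their highest group mean, their median lay at percentile 98.1 of all genes and the lowest, Gm37724, at percentile 62.3. For most of them the highest group was L2C mz_NrKO, which includes replicate 3, a library that stood apart. These genes held 10.2% of TPM in that library, against a group mean of 5.37%. The highest means were not taken without it. The GENCODE annotation called 66 of them protein-coding, 6 lincRNA, 5 unconfirmed transcripts (TEC) and 2 unprocessed pseudogenes, and it held no single match for H1f8 and Ptp4a1. They lay on 17 chromosomes, 9 of them on chromosome 6. Few were neighbours: Tcl1b2 and Tcl1b1 were 4.46 kb apart and Tcl1b1 and Tcl1 50.1 kb apart on chromosome 12. Gm10925 and Gm29216 were 1.06 kb apart on chromosome 1. Both are nuclear copies of mitochondrial sequence whose reads cannot be told apart from those of their source, so their values are uncertain.

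Hspa8, the constitutive cytosolic Hsp70 chaperone, had the highest group mean of all genes, 10354 TPM in mz_EKO embryos at 8C. Omt2b, an oocyte transcript, was the next member, with 6327 TPM in mz_EKO embryos at L2C. Ctsl, the lysosomal protease cathepsin L, averaged 4860 TPM in mz_DHet embryos at L2C, and Rplp0, a ribosomal stalk protein, 4745 TPM in mz_DHet embryos at 8C. Among the other abundant members were the alkaline phosphatase Alppl2 (3725 TPM in L2C mz_DHet), the autophagosome protein Map1lc3b (2746 TPM in 4C mz_EKO) and Odc1, the first enzyme of polyamine synthesis (2388 TPM in 8C mz_DKO). Eif5a, a translation factor, reached 2363 TPM in 8C mz_EKO embryos and the start-codon factor Eif1 2201 TPM in L2C z_NrKO embryos. Securin, encoded by Pttg1, reached 2041 TPM in 4C mz_EKO embryos and cyclin B1, encoded by Ccnb1, 1722 TPM in 4C mz_NrKO embryos. The RNA polymerase II subunit Polr2c and the ubiquitin-conjugating enzyme Ube2d3 had highest means of 1253 TPM in L2C mz_DKO and 1402 TPM in L2C mz_NrKO embryos. Over the 14 group means, the genes whose log2(TPM + 1) was most like that of Hspa8 were Rack1 (Pearson r = 0.996) and Rpl5 (0.994). These r values are a description over group means.

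Together the 81 genes held 3.43% to 5.37% of all TPM in the group means. At L2C their share was 5.37% ± 2.01 (SD, n = 10) in mz_NrKO, 5.06% ± 1.18 (n = 10) in mz_EKO and 3.83% ± 0.375 (n = 6) in mz_DKO embryos, against 4.34% ± 0.612 (n = 7) in mz_DHet embryos. It was 3.76% ± 0.633 (n = 6) in z_NrKO and 3.81% ± 0.310 (n = 7) in z_NrHet embryos. The widest range was that of mz_NrKO, 3.31% to 10.2%, and without the 3 libraries that stood apart the means were 4.83% in mz_NrKO and 4.88% in mz_EKO embryos. At 8C the share was 3.60% ± 0.437 (n = 5) in mz_NrKO, 3.46% ± 0.153 (n = 9) in mz_EKO and 3.47% ± 0.411 (n = 9) in mz_DKO embryos, against 3.43% ± 0.353 (n = 16) in mz_DHet embryos. The ranges of the genotypes overlapped at each stage.

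**Figure D1:**
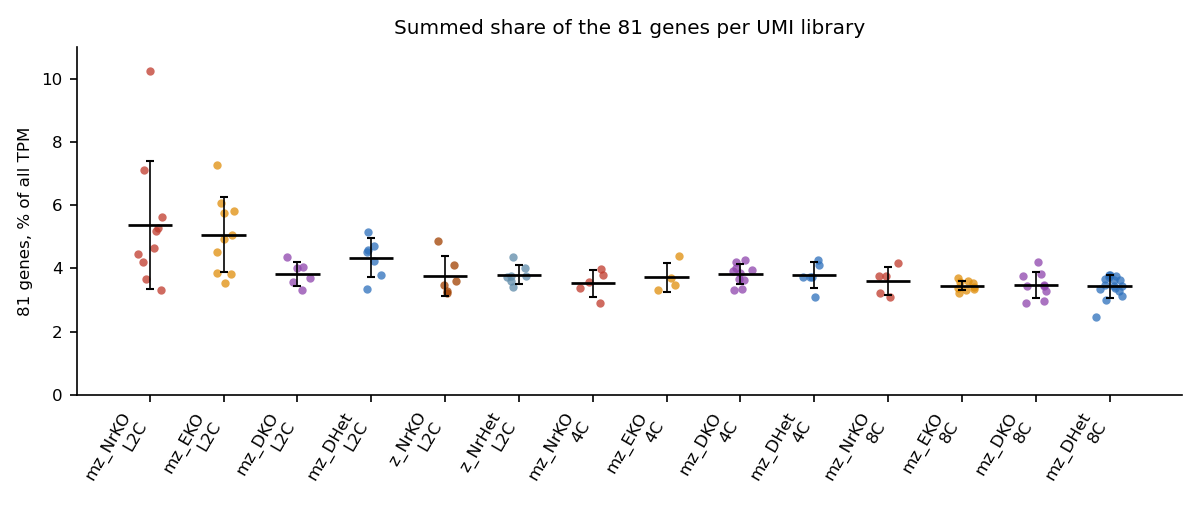
Share of all TPM (percent, y axis) held by the 81 genes in each of 110 UMI libraries, by stage and genotype; points are embryos and bars the mean ± SD. All group means lie between 3.43% and 5.37%, and the highest single library, an L2C mz_NrKO embryo, is at 10.2%.

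Control embryos show which of these transcripts held a lower or a higher share of an embryo's RNA at 8C than at L2C. In mz_DHet embryos the chaperone Hspa8 and the ribosomal gene Rplp0 rose. All oocyte genes tested fell, but most of them were tested only through embryos other than the 8C controls. Of 80 members tested, 5 rose and 67 fell at 8C relative to L2C (limma, adjusted p under 0.05). Of all 14505 genes tested 48.9% passed, 11.5% higher and 37.4% lower. The median log2 change was -3.63 over the members and -0.62 over all genes. With libraries rescaled by the median of ratios, 12 members rose and 59 fell, with medians of -2.84 and -0.12. Of all 14039 genes tested after that scaling 6816 passed, 3135 of them higher. Of the 80, 35 were at 5 TPM or more in fewer than 4 of the 8C controls, so they were tested through other embryos and had to be low at 8C; all 35 fell. Of the other 45, 5 rose and 32 fell, with a median log2 change of -1.51. Most mz_DHet embryos were collected on 22 May at L2C and on 8 March at 8C, and the fit carries the date. Only 2 of the L2C mz_DHet embryos came from 8 March.

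Hspa8 averaged 10092 ± 2126 TPM in 8C mz_DHet embryos, against 1499 ± 331 TPM in L2C mz_DHet embryos (SD, n = 16 and 7), a log2 change of 2.95 ± 0.23 (SE, limma adjusted p = 1.09e-20). Rplp0 averaged 4745 ± 462 TPM at 8C, against 956 ± 277 TPM at L2C, a log2 change of 2.41 ± 0.24 (limma adjusted p = 7.5e-15). No 8C embryo overlapped the L2C embryos in these genes. Smaller rises were those of Eif5a (1.13 ± 0.18), the ribosomal gene Rpl41 (0.59 ± 0.24) and the small GTPase Arf1, which drives vesicle budding (0.52 ± 0.15), and in these 3 the stages overlapped. Of the 5 translation and ribosome genes 3 rose and 2 fell, with a median log2 change of 0.59.

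All 18 tested oocyte and egg genes fell, with a median log2 change of -6.23. Only 6 of them, Omt2b included, were at 5 TPM or more in at least 5 of the 8C controls. The others, among them Oog3, Btg4 and Tcl1, were tested through other embryos and had to be low at 8C. Their falls support nothing. Omt2b averaged 5.06 ± 4.53 TPM in 8C embryos, against 2897 ± 3207 TPM in L2C embryos, a log2 change of -10.25 ± 0.57 (limma adjusted p = 6.32e-30). Oog3, an oogenesin of the PRAME family, averaged 0.756 ± 0.983 TPM at 8C, against 650.3 ± 704 TPM at L2C, a log2 change of -9.80 ± 0.38 (limma adjusted p = 3.27e-41). The next largest falls were those of the polycystin-family channel gene Pkd2l2 (-9.19 ± 0.60), Gm2042 (-9.04 ± 0.55) and C86187 (-8.39 ± 0.46), likewise tested through other embryos. Btg4, an adapter that brings maternal mRNA to the deadenylase complex, averaged 0.627 TPM at 8C, against 235 TPM at L2C. Tcl1, an Akt co-activator inherited from the egg, averaged 1.38 TPM at 8C, against 295 TPM at L2C. These genes approached 0 at 8C, where log2(TPM + 1) understates a fold change.

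All 8 members of signalling and cytoskeleton fell (median -4.78), as did 5 of 6 of metabolism and transport (median -3.43) and 20 of 21 tested genes with no settled role (median -5.56). These counts include genes tested through other embryos, which had to be low at 8C. Carmil1, Ccdc6, Jag1, Parp12 and Spry4 of signalling and most genes with no settled role are among them. Over all roles the 35 such genes had a median of -6.08, against -1.51 for the other 45. Of 6 genes of the ubiquitin and p53 pathways 4 fell, among them Rbm38, an RNA-binding protein induced by p53, with 104 ± 45.7 TPM at 8C, against 690.0 ± 268 TPM at L2C. Of the 4 cell division genes Pttg1 and Ccnb1 fell, by 2.73 and 0.71 on the log2 scale. Of 5 genes of transcription, chromatin and RNA decay 4 fell, among them the deadenylase Cnot7, with 58.6 TPM at 8C, against 266 TPM at L2C. Map1lc3b did not pass, with 2251 ± 179 TPM at 8C, against 2366 ± 464 TPM at L2C (limma adjusted p = 0.197). These role groups were made with the members' names in view and are given as descriptions.

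**Figure D2:**
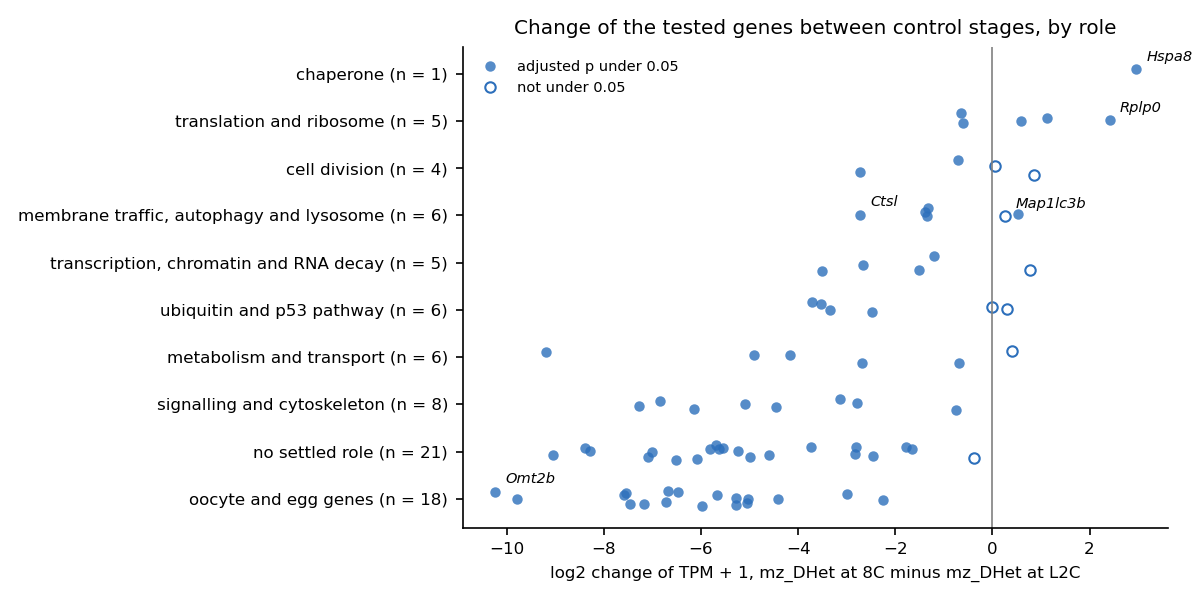
Log2 change of each tested member between 8C and L2C in mz_DHet controls (x axis, 8C minus L2C), by role group (rows); filled points passed at an adjusted p under 0.05. The 5 rises are Hspa8, Rplp0, Eif5a, Rpl41 and Arf1, and all 18 oocyte and egg genes lie left of 0. Of these 18, only 6 reached 5 TPM in at least 5 of the 8C controls, and the others had to be low at 8C.

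Between 4C and L2C no member passed in controls (0 of 80, limma; 8, or 10%, at an unadjusted p under 0.05), against 0.0414% of all 14505 genes called and 8.26% at an unadjusted p under 0.05. The median log2 change of the members was -0.23. Without the collection date in the fit 15 passed, 2 higher and 13 lower, against 507 of all 14505 genes, 179 of them higher. Only 1 of the 4C mz_DHet embryos shares a date with L2C controls. In 4C controls Hspa8 averaged 2374 ± 438 TPM, between its means at L2C and 8C, and Omt2b still ranged from 616 to 3636 TPM.

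At 8C, embryos lacking maternal and zygotic Nr5a2, alone or with Esrrb, had more of Ctsl, Mat2b, Zfp57, Khdc1b and Ccnb1 and less of Map1lc3b, Pttg1 and Ptp4a1 than heterozygous controls, and in embryos lacking Esrrb alone no member passed. In mz_NrKO embryos 17 of the 49 members tested passed, 10 higher and 7 lower than in mz_DHet (limma adjusted p under 0.05), or 34.7%, against 25.4% of all 8960 genes tested (15.1% higher, 10.2% lower). In mz_DKO embryos 24 passed, 15 higher and 9 lower, or 49.0%, against 34.6% of all genes (19.6% higher, 15% lower). In mz_EKO embryos none passed, against 0.0112% of all genes called, and 2 members, or 4.08%, had an unadjusted p under 0.05, against 3.46% of all genes. Of the 49, Gm1070, Gm2042, Gtf2a1 and Tcl1 reached 5 TPM in fewer than 5 controls and were tested only through mutant embryos. Without these 4, 8 members were higher and 7 lower in mz_NrKO, and 13 higher and 9 lower in mz_DKO embryos. The median log2 change of the members was 0.12 in mz_NrKO, 0.13 in mz_DKO and 0.08 in mz_EKO embryos, against 0.09, 0.05 and 0.03 over all genes. The 3 comparisons share the mz_DHet controls, and mz_DKO was not tested against mz_NrKO. Without mz_DHet replicate 12, the control least like the others, 22 members passed in mz_NrKO (12 higher, 10 lower) and 28 in mz_DKO embryos (15 higher, 13 lower). Counts over all genes are not given for that refit. Among embryos of 8 March alone, 14 passed in mz_NrKO (9 higher, 5 lower), 21 in mz_DKO (12 higher, 9 lower) and 0 in mz_EKO. Of all genes tested on that day, 1793 of 9159 passed in mz_NrKO, 2542 of 8103 in mz_DKO and 1 of 8103 in mz_EKO. After median-of-ratios scaling, 9 rose and 10 fell in mz_NrKO and 12 rose and 12 fell in mz_DKO embryos. Of all 8887 genes then tested, 2337 passed in mz_NrKO (1132 higher) and 3157 in mz_DKO (1600 higher). The other 32 members were under 5 TPM in too many 8C libraries to be tested, and their group means stayed at or under 4.63 TPM in mz_DKO, 3.37 TPM in mz_NrKO, 1.93 TPM in mz_EKO and 2.94 TPM in mz_DHet embryos.

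**Figure D3:**
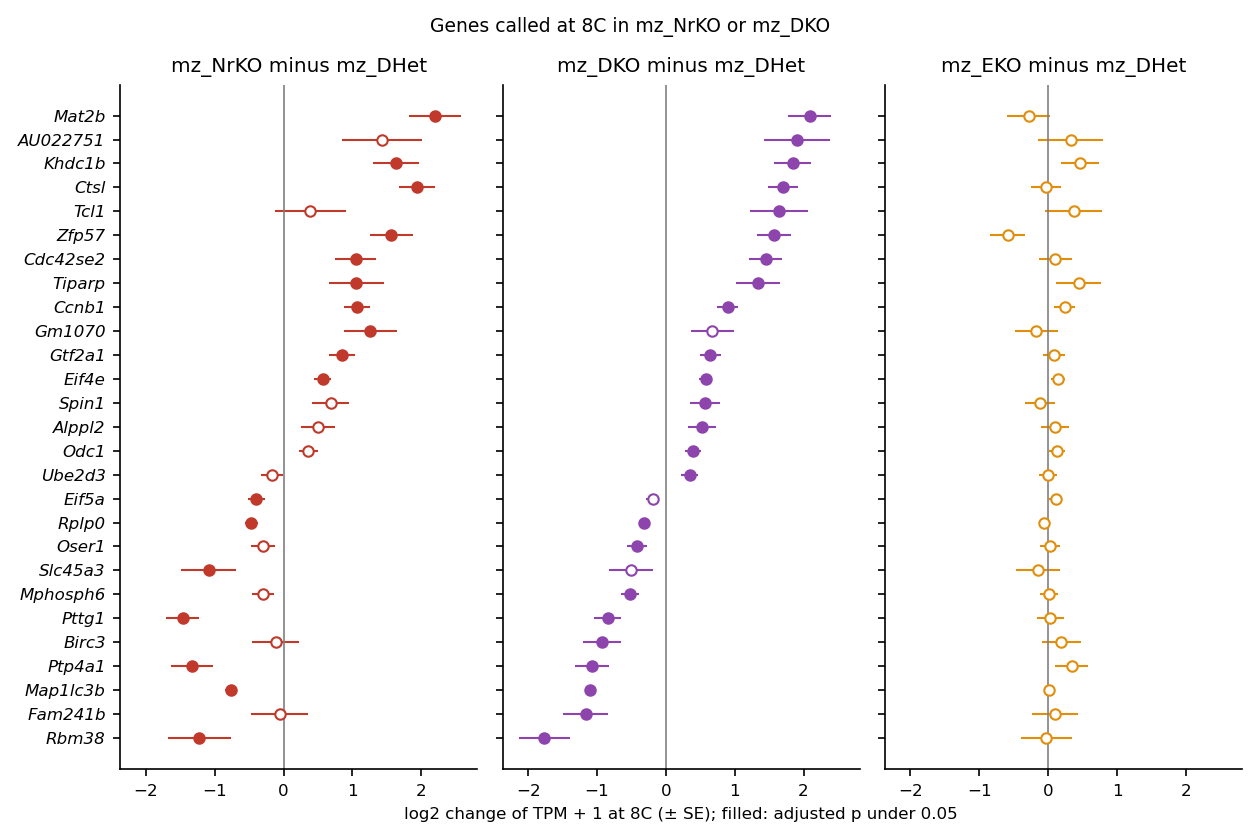
Log2 change ± SE at 8C (x axis) of the members that passed in mz_NrKO or mz_DKO embryos, each against mz_DHet, with 1 panel each for mz_NrKO, mz_DKO and mz_EKO; filled points passed at an adjusted p under 0.05. Mat2b and Ctsl have the largest rises in mz_NrKO, and no point is filled in the mz_EKO panel. Gm1070, Gtf2a1 and Tcl1 were tested only through mutant embryos, so their rises follow in part from the 5 TPM limit.

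Ctsl, whose protease is active in lysosomes (gene at chr13:64359337-64370890, minus strand, mm10), had 1763, 1961, 2892, 2301 and 1577 TPM in the 5 mz_NrKO embryos. It had a lowest, median and highest value of 1021, 1911 and 2999.6 TPM in mz_DKO, 302, 553 and 794 TPM in mz_EKO and 321, 483 and 1292 TPM in mz_DHet embryos. Every mz_NrKO embryo and 7 of 9 mz_DKO embryos lay above the highest control, which was the library that stood lowest in similarity. The log2 change was 1.93 ± 0.26 in mz_NrKO (limma adjusted p = 1.29e-06) and 1.70 ± 0.21 in mz_DKO embryos (5.96e-08). Without that control library the changes were 2.02 and 1.79.

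Mat2b, the regulatory subunit of the enzyme that makes S-adenosylmethionine (chr11:40679314-40695203, minus strand), had 283, 294, 424, 467 and 238 TPM in mz_NrKO embryos. It had 101, 359 and 551 TPM (lowest, median, highest) in mz_DKO, 13.9, 55.2 and 123 TPM in mz_EKO and 33.3, 67.9 and 199 TPM in mz_DHet embryos. All mz_NrKO embryos and 8 of 9 mz_DKO embryos exceeded every control. Its log2 change was 2.20 ± 0.38 in mz_NrKO (limma adjusted p = 4.49e-05) and 2.09 ± 0.31 in mz_DKO embryos (1.35e-06).

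Zfp57, a zinc finger protein that protects imprinted methylation (chr17:37001163-37010635, plus strand), had 34.8, 52.1, 37.0, 59.4 and 119.8 TPM in mz_NrKO embryos. It had 26.2, 51.4 and 110.3 TPM in mz_DKO, 6.87, 11.8 and 20.3 TPM in mz_EKO and 6.87, 20.8 and 39.0 TPM in mz_DHet embryos. Of the mutants, 3 of 5 mz_NrKO and 7 of 9 mz_DKO embryos lay above all controls, and the rest overlapped them. The log2 change was 1.57 ± 0.31 in mz_NrKO (limma adjusted p = 0.000228) and 1.57 ± 0.25 in mz_DKO embryos (4.83e-06). Without mz_NrKO replicate 5, the highest embryo, it still passed (limma adjusted p = 0.00283). In mz_EKO embryos the change was -0.59 ± 0.25 with an unadjusted p of 0.0238 and did not pass (limma adjusted p = 0.997).

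Khdc1b, a KH-domain gene of oocytes and 2-cell embryos, had 22.4, 25.3, 24.9, 70.2 and 25.9 TPM in mz_NrKO embryos. It had 20.7, 30.7 and 60.6 TPM in mz_DKO, 5.11, 14.0 and 24.1 TPM in mz_EKO and 2.93, 8.30 and 27.8 TPM in mz_DHet embryos. Only 1 mz_NrKO embryo, against 6 of 9 mz_DKO embryos, exceeded all controls. The log2 change was 1.63 ± 0.34 in mz_NrKO (limma adjusted p = 0.000372) and 1.84 ± 0.27 in mz_DKO embryos (1.33e-06).

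Ccnb1, the cyclin that drives entry into mitosis, had 1313, 1730.4, 2084, 2096 and 1054 TPM in mz_NrKO embryos. It had 1168, 1382 and 1969 TPM in mz_DKO, 508.5, 975 and 1248 TPM in mz_EKO and 513, 763 and 1194 TPM in mz_DHet embryos. All but 1 embryo of each of mz_NrKO and mz_DKO exceeded the highest control. The log2 change was 1.07 ± 0.18 in mz_NrKO (limma adjusted p = 4.11e-05) and 0.90 ± 0.15 in mz_DKO embryos (1.05e-05).

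Pttg1, whose protein securin holds back the separation of sister chromatids, had 115, 68.1, 46.6, 173 and 120.1 TPM in mz_NrKO embryos. It had 84.8, 156 and 186 TPM in mz_DKO, 144, 288 and 462 TPM in mz_EKO and 170.1, 269 and 415 TPM in mz_DHet embryos. Of the mutants, 4 of 5 mz_NrKO and 7 of 9 mz_DKO embryos lay below every control. It fell by 1.47 ± 0.24 on the log2 scale in mz_NrKO (limma adjusted p = 1.84e-05) and by 0.84 ± 0.19 in mz_DKO embryos (0.000649). Cyclin B1 and securin mRNA, both mitotic genes, thus moved in opposite directions at 8C. The kinase gene Bub1b and the microtubule gene Mapre1, the other division genes, did not pass in either group.

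Map1lc3b, the LC3B protein of autophagosome membranes (chr8:121590361-121598760, plus strand), had 1240.2, 1199, 1378, 1478 and 1285 TPM in mz_NrKO embryos. It had 901, 1026 and 1306 TPM in mz_DKO, 2015, 2288 and 2557 TPM in mz_EKO and 1837, 2265 and 2538 TPM in mz_DHet embryos. All 5 mz_NrKO and all 9 mz_DKO embryos lay below the lowest control, while mz_EKO embryos overlapped the controls. It fell by 0.77 ± 0.08 on the log2 scale in mz_NrKO (limma adjusted p = 1.34e-08) and by 1.10 ± 0.07 in mz_DKO embryos (1.69e-15). The gene also had the smallest spread between control embryos of the 24 members at or above 100 TPM, with a coefficient of variation of 7.97%. Of the 6 genes of membrane traffic, autophagy and lysosome it was the only one to fall, and Ctsl the only one to rise, in either mutant.

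**Figure D4:**
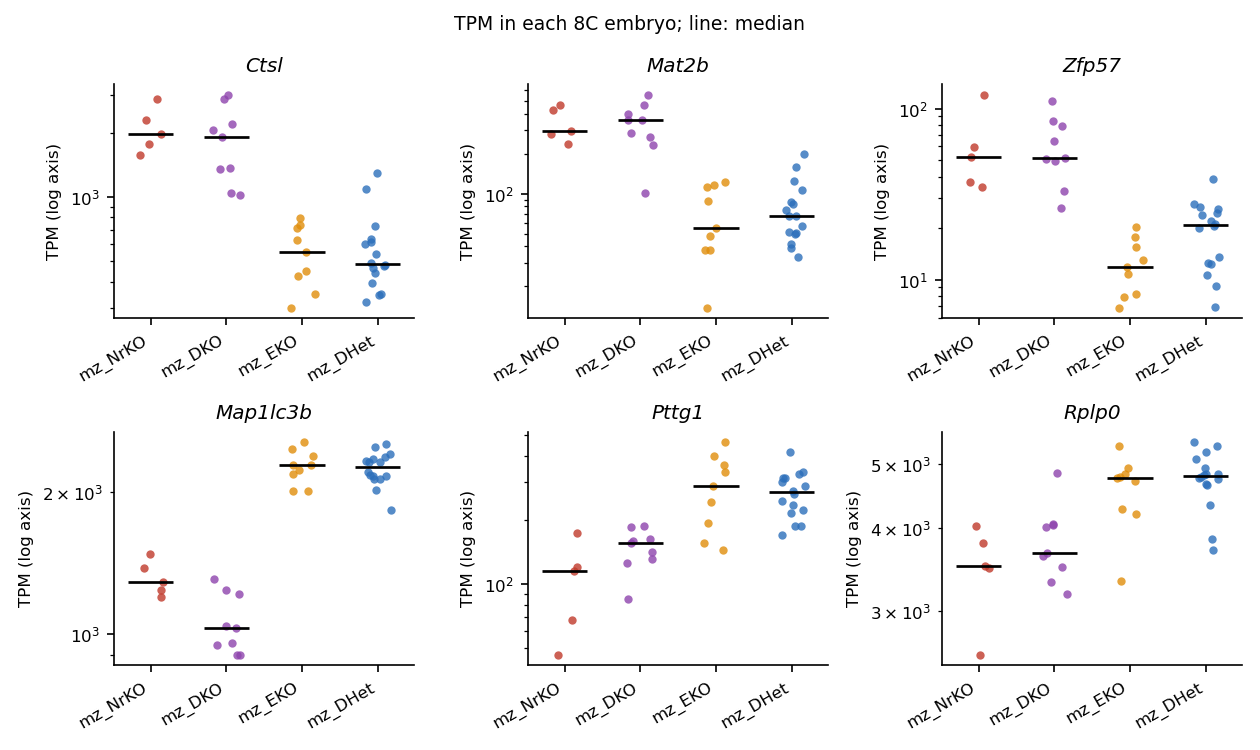
TPM (log axis) of Ctsl, Mat2b, Zfp57, Map1lc3b, Pttg1 and Rplp0 in each 8C embryo of mz_NrKO, mz_DKO, mz_EKO and mz_DHet; lines are group medians. Map1lc3b lies below the lowest control in all mz_NrKO and mz_DKO embryos, and Ctsl and Mat2b above the highest control in all mz_NrKO embryos.

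The translation genes divided. Rplp0 had 3510.0, 2577, 3799.9, 3489 and 4029 TPM in mz_NrKO embryos, against a lowest, median and highest of 3706, 4796 and 5389 TPM in mz_DHet embryos. It fell by 0.47 ± 0.09 on the log2 scale in mz_NrKO (limma adjusted p = 0.000282) and by 0.32 ± 0.08 in mz_DKO embryos (0.00105), with overlap in both. Eif5a, which helps ribosomes past stalls and joins polyamine metabolism to translation, fell by 0.40 ± 0.12 in mz_NrKO (0.0135), a call lost without mz_NrKO replicate 4, and did not pass in mz_DKO embryos. Eif4e, the cap-binding protein, had 89.6, 81.9, 101, 108 and 75.4 TPM in mz_NrKO embryos, against 43.3 to 79.0 TPM in mz_DHet embryos. Its log2 change was 0.57 ± 0.12 in mz_NrKO (0.000713) and 0.58 ± 0.10 in mz_DKO embryos (2.07e-05), with 4 of 5 and 8 of 9 embryos above all controls.

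Among signalling genes, Cdc42se2, a small effector of the GTPase Cdc42, had 22.4, 28.5, 16.7, 17.3 and 15.8 TPM in mz_NrKO embryos, against 2.57, 9.36 and 19.4 TPM (lowest, median, highest) in mz_DHet embryos. Its log2 change was 1.05 ± 0.29 in mz_NrKO (limma adjusted p = 0.0068) and 1.45 ± 0.24 in mz_DKO embryos (7.21e-06). Tiparp, a mono-ADP-ribosyltransferase, rose by 1.06 ± 0.40 in mz_NrKO (0.0467) and by 1.34 ± 0.32 in mz_DKO embryos (0.0012), and its mz_DHet values lay between 1.29 and 10.7 TPM. The mz_NrKO call of Tiparp was lost without mz_NrKO replicate 1, 3 or 4, or without mz_DHet replicate 1, 2, 4, 5, 6, 14 or 15, and also after median-of-ratios scaling, with no filter or on a single date. The phosphatase gene Ptp4a1 had 97.2, 39.9, 54.9, 47.3 and 85.9 TPM in mz_NrKO embryos, against 23.3, 167 and 243 TPM in mz_DHet embryos. It fell by 1.33 ± 0.30 in mz_NrKO (0.000951) and by 1.07 ± 0.24 in mz_DKO embryos (0.000583). The lowest control value was that of mz_DHet replicate 12, and without it Ptp4a1 fell by 1.25 in mz_DKO embryos.

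Of the transcription genes, Gtf2a1, a subunit of the general factor TFIIA, had 6.48 to 10.4 TPM in mz_NrKO and 3.80 to 8.74 TPM in mz_DKO embryos, against 2.87 to 7.02 TPM in mz_DHet embryos. Only 1 control reached 5 TPM, so the gene was tested through mutant embryos and its difference follows in part from the limit. Its log2 change was 0.85 ± 0.19 in mz_NrKO (limma adjusted p = 0.000819) and 0.64 ± 0.15 in mz_DKO embryos (0.00105). Mphosph6, a cofactor of the nuclear RNA exosome, fell by 0.53 ± 0.13 in mz_DKO embryos (0.00148), where 6 of 9 embryos lay below all controls.

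Rbm38 had 38.5, 153, 14.8, 29.6 and 40.7 TPM in mz_NrKO embryos, against 36.8, 104 and 209 TPM (lowest, median, highest) in mz_DHet embryos. The embryo at 153 TPM lay above the control median and the others near or below the lowest control. It fell by 1.22 ± 0.45 on the log2 scale in mz_NrKO (limma adjusted p = 0.0435) and by 1.71 without that embryo. The mz_NrKO call of Rbm38 was lost without any other mz_NrKO embryo, or without mz_DHet replicate 1 to 8, 10 or 14, and with no filter or on a single date. In mz_DKO embryos it fell by 1.77 ± 0.37 (0.000221). Birc3, a ubiquitin ligase that restrains cell death, fell by 0.92 ± 0.28 in mz_DKO (0.00842), and Ube2d3 rose by 0.34 ± 0.13 (0.0302) there, a call lost without mz_DKO replicate 5, 6 or 8, after median-of-ratios scaling or with no filter.

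The oocyte and egg genes that were still measurable at 8C rose in part. Of 18, 7 were tested, 1 of them (Tcl1) only through mutant embryos. Of the other 6, 2 rose in mz_NrKO (Zfp57, Khdc1b) and 4 in mz_DKO embryos (with AU022751 and Spin1), beside the 15.1% and 19.6% of all genes called higher. Genes near the 5 TPM limit entered more readily where a mutant was high. AU022751, the gene of Ezhip, an inhibitor of the Polycomb methyltransferase complex, had 3.74, 14.9 and 38.2 TPM in mz_DKO embryos, against 0, 3.56 and 9.59 TPM in mz_DHet embryos, a log2 change of 1.90 ± 0.47 (limma adjusted p = 0.00158). Tcl1 had 0, 5.01 and 18.8 TPM in mz_DKO embryos, against 0, 0.910 and 4.87 TPM in mz_DHet embryos, a log2 change of 1.65 ± 0.42 (0.00204); no control reached 5 TPM, so this difference follows in part from the limit and supports nothing. Spin1, a histone reader stored in eggs, changed by 0.57 ± 0.22 in mz_DKO embryos (0.0399), a call lost without mz_DKO replicate 1, 2, 4, 8 or 9, or without mz_DHet replicate 1, 3, 5, 10, 14 or 16, and also after median-of-ratios scaling, with no filter or on a single date. Beside these, a list of 30 genes of the 2-cell burst summed to 399 to 830.1 TPM in mz_NrKO and 350.1 to 811 TPM in mz_DKO, against 134 to 371 TPM in mz_DHet embryos. A list of 38 oocyte and maternal genes, of which 7 are members, had a median sum of 6472 TPM in mz_NrKO and 7089 TPM in mz_DKO, against 6153 TPM in mz_DHet embryos. The part of these lists in the rises was not tested.

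The remaining calls were smaller or of low genes. In mz_DKO embryos Odc1 rose by 0.39 ± 0.12 on the log2 scale (limma adjusted p = 0.00766) and Alppl2 by 0.52 ± 0.20 (0.0397), a call lost without mz_DKO replicate 3, 4, 5, 6 or 7, or without mz_DHet replicate 4, 5, 8, 12, 13 or 16, and also after median-of-ratios scaling, with no filter or on a single date. Oser1 fell by 0.42 ± 0.14 (0.0181) and Fam241b by 1.17 ± 0.33 (0.00541) in mz_DKO embryos. In mz_NrKO embryos Gm1070, tested only through mutant embryos, had a log2 change of 1.26 ± 0.39 (0.0131) and the transporter gene Slc45a3 fell by 1.09 ± 0.40 (0.0406), both at group means at or under 13.1 TPM. The difference of Gm1070 follows in part from the 5 TPM limit. The call of Gm1070 was lost without mz_NrKO replicate 3, and that of Slc45a3 without mz_NrKO replicate 2, 3 or 5, or mz_DHet replicate 1, 4, 6, 7, 8, 9 or 16, with no filter or on a single date. Hspa8, the most abundant member, had 10798, 9273, 10072, 8631 and 10027 TPM in mz_NrKO embryos, against 4448, 10713 and 12856 TPM in mz_DHet embryos, and its log2 change of -0.02 did not pass (0.925).

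The gene starts of Ctsl, Mat2b, Zfp57 and Eif4e, 4 of the members that rose in both mutants, and of Map1lc3b, which fell in both, are shown because the deleted factors are known to bind a short DNA motif. That motif CAAGGNCA, an extended site that Nr5a2 and Esrrb are known to bind, was searched on both strands from 250 bases before to 50 bases after the RefSeq gene starts (GRCm38.p6). It was in 6 of 90 windows of the 62 members matched, or 6.67%, against 2204 of 32851 windows in all, or 6.71%. The windows of Ctsl, Mat2b and Map1lc3b held no match, that of Zfp57 held 1 on the reverse strand 7 bases after the start, and that of Eif4e held 2, 90 and 61 bases before the start. Cdc42se2, which also rose in both mutants and is not shown, held 1 on the reverse strand 50 bases before the start. Of the 3 RefSeq starts of Zfp57 and the 2 of Eif4e, the one with most matches is shown. Capitals mark the matches in these windows, read 5' to 3' on the strand of the gene. They lie at chr13:64370471-64370770 (Ctsl, minus), chr11:40692633-40692932 (Mat2b, minus), chr17:37002275-37002574 (Zfp57, plus), chr3:138525941-138526240 (Eif4e, plus) and chr8:121590188-121590487 (Map1lc3b, plus). The windows of Ctsl, Mat2b and Zfp57 lie wholly inside the GENCODE gene bounds given above.
Ctsl: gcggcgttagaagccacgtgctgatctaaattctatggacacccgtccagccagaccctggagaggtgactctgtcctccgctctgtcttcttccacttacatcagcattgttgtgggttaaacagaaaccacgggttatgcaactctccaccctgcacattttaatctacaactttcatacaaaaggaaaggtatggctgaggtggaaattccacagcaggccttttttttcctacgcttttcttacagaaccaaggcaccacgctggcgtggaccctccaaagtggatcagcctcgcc
Mat2b: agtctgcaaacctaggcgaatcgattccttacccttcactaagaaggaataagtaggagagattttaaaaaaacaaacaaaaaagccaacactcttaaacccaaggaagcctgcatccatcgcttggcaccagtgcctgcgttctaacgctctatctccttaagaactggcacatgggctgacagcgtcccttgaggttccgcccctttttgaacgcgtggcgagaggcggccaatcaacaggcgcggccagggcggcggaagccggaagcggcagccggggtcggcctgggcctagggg
Zfp57: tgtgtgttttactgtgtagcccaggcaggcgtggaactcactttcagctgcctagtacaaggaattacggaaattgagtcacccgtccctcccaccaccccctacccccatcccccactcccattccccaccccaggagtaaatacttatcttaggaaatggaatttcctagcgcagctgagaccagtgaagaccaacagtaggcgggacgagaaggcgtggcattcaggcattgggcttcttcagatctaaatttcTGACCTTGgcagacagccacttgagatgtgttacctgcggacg
Eif4e: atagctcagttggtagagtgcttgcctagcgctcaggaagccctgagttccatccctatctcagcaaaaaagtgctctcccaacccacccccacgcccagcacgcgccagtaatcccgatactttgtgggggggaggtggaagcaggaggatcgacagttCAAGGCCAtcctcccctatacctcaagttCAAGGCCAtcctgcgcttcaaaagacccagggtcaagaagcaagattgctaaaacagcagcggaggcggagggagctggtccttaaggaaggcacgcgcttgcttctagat
Map1lc3b: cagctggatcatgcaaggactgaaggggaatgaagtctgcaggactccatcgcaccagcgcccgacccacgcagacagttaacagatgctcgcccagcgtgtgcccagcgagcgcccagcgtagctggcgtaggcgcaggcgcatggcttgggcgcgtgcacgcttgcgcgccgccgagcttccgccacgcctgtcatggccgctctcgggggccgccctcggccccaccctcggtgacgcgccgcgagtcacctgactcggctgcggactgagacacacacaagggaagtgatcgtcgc
A match is a run of letters and not a measured binding site.

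Before 8C no member passed in any mutant, which does not show that the groups were alike. At 4C the members called were 0 of 79 in mz_NrKO, in mz_EKO and in mz_DKO (limma), against 0.159%, 0% and 1.17% of all 10695 genes called. At an unadjusted p under 0.05 there were 4 members in mz_NrKO (5.06%, against 9.73% of all genes), 9 in mz_EKO (11.4%, against 6.55%) and 7 in mz_DKO (8.86%, against 11.6%). The smallest limma adjusted p was 0.184 in mz_NrKO, 0.597 in mz_EKO and 0.127 in mz_DKO. That of mz_DKO was for Zfp57, with 139, 284 and 451 TPM (lowest, median, highest) in mz_DKO, against 302, 471 and 641 TPM in mz_DHet embryos. Ctsl averaged 3328 TPM in mz_NrKO and 3782 TPM in mz_DKO, against 3683 TPM in mz_DHet embryos at 4C, and Mat2b 661 ± 92.4 TPM in mz_NrKO, against 661 ± 145 TPM in mz_DHet. In the authors' deposited table of UMI comparisons, which used a false discovery rate under 0.1, 4 members were lower in mz_DKO at 4C (D6Ertd527e, Pttg1, Rab7, Zfp57). For mz_NrKO at 4C it had 1 higher (Rpl41) and 1 lower (Tcl1), and for mz_DKO at the 2-cell stage 1 lower (Gm36958, log2 change -1.18, FDR 0.0552). At 8C the authors' deposited table had 17 members higher and 13 lower in mz_NrKO, 21 and 16 in mz_DKO and none in mz_EKO. Between 79 and 81 members had a value in each of these deposited comparisons. Their shares over all genes were not taken, so it is not shown whether the members differ from other genes there. The threshold and the genes tested also differ from those used above.

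At L2C none of the 80 members tested passed in mz_NrKO, mz_EKO, mz_DKO or z_NrKO embryos, against 0%, 0%, 0.017% and 0.017% of all 11766 genes called. At an unadjusted p under 0.05 (limma) there were 8 members in mz_NrKO, 4 in mz_EKO, 3 in mz_DKO and 2 in z_NrKO, or 10%, 5%, 3.75% and 2.5%, against 7.25%, 6.35%, 6.49% and 6.43% of all genes. None passed without the 3 libraries that stood apart, against 3, 0, 7 and 6 of all 11459 genes in mz_NrKO, mz_EKO, mz_DKO and z_NrKO. Ctsl did not pass, with 1189, 2153 and 3940 TPM (lowest, median, highest) in mz_NrKO, against 1713, 6166 and 7788 TPM in mz_DHet embryos (log2 change -0.73 ± 0.36, limma adjusted p = 0.685). Controls differed by date: Ctsl had 2059 and 3324 TPM in the 2 mz_DHet embryos of 8 March, against a median of 6181 TPM in the 5 of 22 May. Omt2b went the other way, with 6799 and 8262 TPM in the 2 embryos of 8 March, against 757 to 1608 TPM in the 5 of 22 May. All L2C mz_NrKO embryos were collected on 8 March, so their nearest controls are the 2 embryos of that day.

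**Figure D5:**
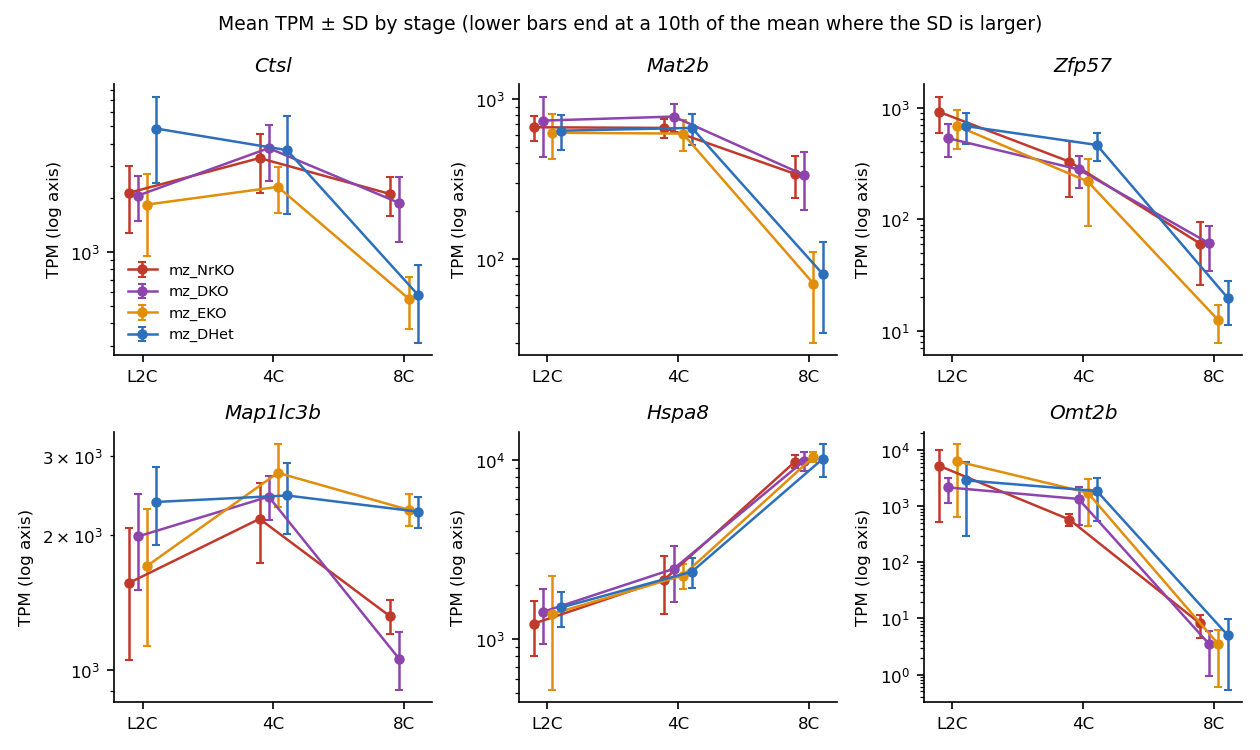
Mean ± SD TPM (log axis) of Ctsl, Mat2b, Zfp57, Map1lc3b, Hspa8 and Omt2b at L2C, 4C and 8C in the 4 mz genotypes; where the SD exceeds the mean the lower bar ends at a 10th of the mean. At 8C the mz_NrKO and mz_DKO means lie above mz_DHet for Ctsl, Mat2b and Zfp57 and below it for Map1lc3b; at L2C those for Ctsl (2131 and 2057 TPM, against 4860 TPM) and at 4C those for Zfp57 (330 and 281 TPM, against 465.7 TPM) lie below mz_DHet, differences that did not pass.

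Whether an effect at 8C differed from that at L2C was tested in a joint fit of both stages. In mz_NrKO the effects on 6 of 80 members differed, 3 upward and 3 downward at 8C, against 2.59% of all 14505 genes (1.86% upward, 0.731% downward). In mz_DKO 6 differed, 5 upward and 1 downward, against 3.76% of all genes (2.57% upward, 1.19% downward), and in mz_EKO none, against 0.00689%. In mz_EKO 1 member, or 1.25%, had an unadjusted p under 0.05, against 5.79% of all genes. For Ctsl the 8C effect minus the L2C effect was 2.76 ± 0.43 on the log2 scale in mz_NrKO (limma adjusted p = 6.12e-06) and 2.65 ± 0.39 in mz_DKO embryos (7.02e-07). For Mat2b it was 1.69 ± 0.41 in mz_NrKO (0.00844) and 1.71 ± 0.37 in mz_DKO embryos (0.00159). Without the 3 L2C libraries that stood apart, 9 members differed in mz_NrKO and 8 in mz_DKO embryos, against 402 and 646 of all 14237 genes. Without the collection date 12 differed in mz_NrKO embryos, 4 upward and 8 downward, against 927 of all 14505 genes, 502 of them upward.

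Between embryos of 1 group the members varied as other genes of their level did at 8C. Among genes with a mean of at least 100 TPM in 8C mz_DHet embryos, the median coefficient of variation was 22.2% for 24 members and 23.0% for all 1600 genes. At L2C it was 33.2% for 52 members and 27.9% for all 2003 genes, with 111% for Omt2b and 108% for Oog3. Gm3183, a predicted gene, varied most at 8C, with 62.5%. Over all 110 libraries it ranged from 0 to 6913 TPM with a median of 2445 TPM; 11 libraries were below 100 TPM and 87 at or above 1000 TPM. In mz_NrKO embryos at 8C it had 5828, 2413, 5801, 5766 and 419 TPM, against 482, 2678 and 6913 TPM (lowest, median, highest) in mz_DHet embryos, and it passed in no genotype.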

How the data were processed

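Single mouse embryos were profiled by RNA-seq with a protocol derived from FLASH-seq, per the labels. For the authors' processing, the submitters' processing notes list the tools cutadapt, STAR, RSEM and DESeq2 and the build mm10, without versions. The deposited UMI table holds TPM made by the authors, summing to 1000000 per library, and the deposited log2 fold changes and FDR (adjusted p-values) of the authors' own comparisons, each used only where named. Its 14 columns of group means were not used. The full-length table, also TPM made by the authors, served for its gene names and for the share of its scale outside them.

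Columns were matched to groups by name. Because the unit is TPM, the test planned for a normalized unit was used: values were taken as log2(TPM + 1) and fitted with limma 3.58.1 (limma-trend, R 4.3.3) per stage with group and collection date. A gene was tested where the number of libraries at 5 TPM or more reached the size of the stage's smallest group. Stages and differences between them came from 1 joint fit of the 14 groups. Tests were two-sided and p-values adjusted by Benjamini-Hochberg over all genes tested, called under 0.05. As no label gives the mother, embryos of 1 group may be littermates, and p-values reflect their spread alone. The fit was tested on simulated data, where it recovered fewer of the changes at L2C and 4C than at 8C. Tables were made with python 3.11.15 and pandas 2.3.3. Gene positions are from GENCODE (mm10) and promoters from RefSeq (GRCm38.p6).

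The members, gene lists and role groups were chosen with earlier results of these data known. The genes named are the members called in any mutant comparison or stage difference, the 20 with the highest group mean, and the 5 largest changes each way between control stages, with the genes most like the most abundant member, of which 1 is not reported here; others that illustrate a group (Btg4, Cnot7, Bub1b, Mapre1) were chosen after their values were seen. Alternatives tried were a pseudocount of 5, median-of-ratios scaling, no filter, no date, a single date, a replicate block, and each library left out.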

Additional observations from a re-analysis of the deposited data

Results flagged for a closer look

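Of 54 groups of values over the 3 stages, most of them at 8C, 3 held an embryo far from the others of its group. Chance gives about 1 in 20. All were mz_NrKO embryos at 8C: Khdc1b had 70.2 TPM in replicate 4, Rbm38 153 TPM in replicate 2 and Zfp57 119.8 TPM in replicate 5. Without that embryo the log2 change was 1.36 for Khdc1b and -1.71 for Rbm38, and for Zfp57 the limma adjusted p was 0.00283; each stayed called.

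Effects of the loss of Nr5a2 that differed between 8C and L2C, given as the 8C effect minus the L2C effect on the log2 scale and called by limma, were those on Ctsl (2.76), Mat2b (1.69), Ccnb1 (1.02), Arf1 (-0.79), Ube2d3 (-0.92) and Ptp4a1 (-1.57). In mz_DKO they were those on Ctsl (2.65), Zfp57 (2.07), Khdc1b (1.96), Mat2b (1.71), Ccnb1 (0.71, a call lost after median-of-ratios scaling and with no filter) and Map1lc3b (-0.99). Both sets rest on the same mz_DHet controls.

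In full-length libraries, which hold no entry under the names of these 81 genes, the share of the TPM scale outside the named genes was 18.5% in early 2-cell (E2C) mz_NrKO replicate 1, against a median of 1.10% over E2C libraries. By stage the median share was 10.2% in MII oocytes and 0.586% at 8C. The 65 rows with a blank name were not counted among the named genes. How much of the share belongs to the 81 genes is unknown.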

How the results depend on the processing

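No called member reversed under any alternative. The 53 called results on single members kept their call in 284 of the refits with another setting and lost it in 21, and kept it in 896 and lost it in 61 with 1 library left out. With each library of the compared groups left out in turn, members called at 8C numbered 14 to 22 in mz_NrKO and 22 to 28 in mz_DKO. The highest counts came without mz_DHet replicate 12. Counts over all genes are not given for these refits. The count stayed at 0 in mz_EKO at 8C and in all mutant comparisons at 4C and L2C. For mz_EKO at 8C and mz_DKO at 4C only control embryos were left out, never the mutants. Without the collection date, 15 members passed between 4C and L2C in controls, 7 in mz_NrKO at L2C (6 higher and 1, Ctsl, lower) and 12 in the mz_NrKO difference between stages. The cause was not tested. Calls that were lost most often were Rbm38 (16 refits), Tiparp (14) and Slc45a3 (12) in mz_NrKO, and Spin1 (15), Alppl2 (14) and Ube2d3 (6) in mz_DKO. On a single date the mz_EKO comparison at 4C was not run, since neither date held 2 embryos of each group. The mz_DKO difference of Ccnb1 between stages lost its call after median-of-ratios scaling and with no filter (largest limma adjusted p = 0.0525). Embryos share only a number across groups: the correlation of same-numbered embryos had a median of 0.015 at 8C. With the replicate block 19 members passed in mz_NrKO and 24 in mz_DKO at 8C, against 2050 and 2881 of all 8960 genes. Under the block Birc3 (limma adjusted p = 0.0743), Spin1 and Ube2d3 in mz_DKO and Tiparp in mz_NrKO lost their calls. The joint fit had no block or left-out library. TPM give no depth, so low genes at 8C carry a counting error that cannot be stated.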
